A study of Homo sapiens with 18 samples.

Results

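Gene-desert windows were the stretches of open chromatin farthest from any protein-coding gene in 6 human ovarian cancer cell lines. They were the windows of the deposited ATAC-seq table on chromosomes 1 to 22 whose centre lay outside every protein-coding gene of the GENCODE v44lift37 annotation (GRCh37, the same build as hg19) and over 500 kb from the nearest protein-coding transcription start site (TSS). Of 89428 windows of 1001 bases, 2482 met this rule, 692 of them over 1000 kb from a TSS. The comparison sets were the 28207 promoter windows within 1 kb of a TSS and the 10759 intergenic windows 5 to 50 kb from a TSS. The rule used position alone and no measured value, but every window of the table had already been kept for its signal.

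ATAC-seq cuts accessible DNA with a transposase, and the number of reads in a window follows how open its chromatin is. The lines formed matched platinum-sensitive and platinum-resistant pairs. CP70 is a resistant derivative of A2780 made in culture, both given as endometrial/ovarian cancer cells. PEA1 and PEA2 are ovarian cancer lines from the same patient before platinum treatment and after resistant relapse. PEO1 and PEO4, also ovarian cancer lines, come from another patient before and after clinical resistance. All were grown in the same medium with no drug, and each line had 3 libraries of 8963079 to 60435027 reads. Each pair is therefore 1 comparison of cell lines, and nothing in the labels says whether replicates came from separate cultures, so that p-values measure the spread between these libraries, which may be technical.

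The promoters of the epithelial genes EPCAM, KRT8 and KRT18 and of PAX8, a transcription factor of Müllerian epithelium, were checked against the labels. In PEO1 and PEO4 they ranged from 6.03 ± 1.61 (SD, n = 3; KRT18 in PEO1) to 31.7 ± 1.502 FPKM (PAX8 in PEO1). In A2780 all 4 lay between 0.632 ± 0.152 and 0.862 ± 0.205 FPKM, near the median of all windows in that line (0.684 ± 0.0444 FPKM, SD, n = 3), and in CP70 between 1.11 ± 0.344 and 1.99 ± 0.157 (median 0.836). PAX8 stood out in PEA1 (6.61 ± 0.783) and PEA2 (7.31 ± 1.41), whereas EPCAM had 1.104 ± 0.0897 FPKM in PEA1 (median 1.204 ± 0.133), and KRT8 and KRT18 had 1.57 ± 0.166 and 1.27 ± 0.278 in PEA2 (median 1.75 ± 0.126). So not all of these epithelial markers stood out in the PEA lines.

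Gene deserts are long stretches without protein-coding genes. Many hold distal enhancers and long non-coding RNA (lncRNA) genes, and enhancers can act on promoters at a great distance through chromatin loops, often those of developmental transcription factors. Enhancers differ far more between cell types than promoters do. AP-1, a dimer of FOS and JUN family proteins, is known to bind open enhancers in many epithelial and cancer cells at the palindrome TGANTCA.

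The sequences below are 200 bases of GRCh37, plus strand, around an AP-1 match or, where a window held none, around its centre. They are the windows with the largest gain in CP70, in PEA2 and in PEO4 and the largest loss in PEO4, then one from the TMEM132B to TMEM132C desert and the window most particular to PEO1. They were chosen after their values were seen and do not stand for all changed windows. Of the 17 named windows with the largest changes in each pair and direction, 8 held a match. Capitals mark TGANTCA, and the flanking protein-coding genes are given.
Higher in CP70, SEL1L to FLRT2, chr14:84293445-84293644: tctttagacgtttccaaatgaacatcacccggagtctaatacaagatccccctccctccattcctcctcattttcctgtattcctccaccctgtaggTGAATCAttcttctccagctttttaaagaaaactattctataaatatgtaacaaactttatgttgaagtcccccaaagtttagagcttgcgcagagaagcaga
Higher in PEA2, NUDT12 to EFNA5, chr5:106209433-106209632: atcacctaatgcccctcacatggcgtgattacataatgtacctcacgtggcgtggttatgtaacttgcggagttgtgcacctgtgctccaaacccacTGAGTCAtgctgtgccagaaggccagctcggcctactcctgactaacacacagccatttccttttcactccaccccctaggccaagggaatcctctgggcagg
Lower in PEO4, PLA2G4A to BRINP3, chr1:188676000-188676199: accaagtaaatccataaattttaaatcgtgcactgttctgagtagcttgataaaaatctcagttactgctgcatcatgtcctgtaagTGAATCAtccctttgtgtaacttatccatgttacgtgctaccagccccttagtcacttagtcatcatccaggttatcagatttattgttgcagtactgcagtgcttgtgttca
Lower in PEO4, TMEM132B to TMEM132C, chr12:126887799-126887998: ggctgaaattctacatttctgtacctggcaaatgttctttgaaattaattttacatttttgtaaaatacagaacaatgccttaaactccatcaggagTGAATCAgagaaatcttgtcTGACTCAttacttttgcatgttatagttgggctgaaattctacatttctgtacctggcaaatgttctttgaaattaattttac
Higher in PEO4, KCNJ2 to SOX9, chr17:68783800-68783999: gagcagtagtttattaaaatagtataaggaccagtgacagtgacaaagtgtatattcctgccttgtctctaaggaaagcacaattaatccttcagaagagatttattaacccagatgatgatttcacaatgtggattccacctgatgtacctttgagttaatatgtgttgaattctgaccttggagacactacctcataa
Highest in PEO1 of all lines, TBX3 to MED13L, chr12:115664907-115665106: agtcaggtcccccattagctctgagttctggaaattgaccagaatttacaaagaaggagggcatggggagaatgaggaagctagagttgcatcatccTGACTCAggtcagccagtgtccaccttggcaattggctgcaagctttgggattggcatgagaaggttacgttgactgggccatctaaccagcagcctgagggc

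The 2482 windows lay in 280 deserts, a desert being the stretch between neighbouring protein-coding genes. They were unevenly spread: 34 deserts held a single window, the median desert held 6, and 81 deserts with at least 10 windows held 1642 windows together. Adjoining windows overlap by design and share reads, and the members formed 1807 separate runs, of which 1255 were single windows, 489 were runs of 2 and the longest held 13. Chromosome 2 carried most windows (342), followed by chromosome 4 (259) and chromosome 8 (208), and chromosome 22 carried fewest (10). The median distance to a TSS was 742 kb. The farthest window lay 2538 kb away.

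Few stretches of the deserts were open enough to enter the table. It held 0.846% of the 293378 windows that tile the deserts, compared with 2.60% of windows 5 to 50 kb from a TSS and 36.7% of promoter windows. Many members lay in non-coding genes: 911 members (36.7%) lay within an annotated lncRNA gene, and 149 (6.003%) lay within 1 kb of a lncRNA start. In all, 161 members lay within 2 Mb of an assembly gap of at least 1 Mb, where repeated sequence is common and the placement of reads is less certain.

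The sequences of the open desert windows differed from those of the deserts around them. Their median GC content was 40.2%, against 35.8% over all tiling windows of the deserts and 59.0% in the promoter windows of the table. Only 1.25% were rich in CpG, compared with 58.8% of promoter windows. TGANTCA, which reads the same on both strands, occurred in 1451 members (58.5%), in 29.7% of all tiling windows of the deserts, in 38.3% of all autosomal windows of the table and in 17.5% of promoter windows. Of the other short motifs, searched on both strands, the rare CTCF core AGGGGGCGC was in 0.645% of members against 0.0702% of tiling windows of the deserts, and the ETS motif CCGGAAGT in 0.886% against 0.298%, so that both ratios were larger than that of AP-1. The OCT motif ATGCAAAT went the other way, with 7.98% against 12.9%, as did the SOX motif ACAATGG, with 12.97% against 15.9%. The others lay closer together. The TEAD motif CATTCCA was found in 21.6% of members against 17.2% of tiling windows of the deserts, the RUNX motif TGTGGTT in 23.4% against 18.7%, the forkhead motif TGTTTAC in 17.2% against 17.6%, and the GATA motif AGATAAG in 13.9% against 15.7%. A match is a run of letters and not a measured binding site.

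Around the distance limit, values changed little. The nearest windows inside it lay 500001 bp from the TSS of PID1 and 500213 bp from that of MKI67, and had means of 0.102 to 3.63 and 0.199 to 2.59 FPKM over the 6 lines. The nearest outside it lay 499913 bp from SPATA31D1 and 499829 bp from PLXNA4, with means of 0.222 to 3.26 and 0.319 to 2.96 FPKM. Windows 400 to 500 kb from a TSS held the AP-1 motif in 57.6% of cases, and those 500 to 600 kb away in 61.4%.

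The level of the desert windows differed widely between lines and was by far highest in PEO1. The median window had 0.279, 0.361 and 0.347 FPKM in the A2780 libraries, and those of CP70 had 0.303, 0.299 and 0.251. For PEA1 the medians were 0.384, 0.405 and 0.384 FPKM, and for PEA2 0.824, 0.636 and 0.710. They reached 2.73, 2.62 and 2.67 FPKM in PEO1, and PEO4 had 1.63, 1.58 and 1.69. The libraries of A2780 and CP70 overlapped, and those of every other neighbouring pair in the order CP70, A2780, PEA1, PEA2, PEO4 and PEO1 did not. In A2780 and CP70 the median desert window held 4 to 21 reads per library, so that values of single windows are imprecise there.

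PEO1 was also the only line in which the median desert window lay above the median window 5 to 50 kb from a TSS. Its promoter windows lay higher still, with a median of 4.94 ± 0.135 FPKM (SD, n = 3). Its median desert window had 2.67 ± 0.0571 FPKM (SD, n = 3) and its median window 5 to 50 kb from a TSS 2.37 ± 0.119. In PEO4 the medians were 1.64 ± 0.0553 and 1.75 ± 0.0184 FPKM, and in A2780 0.329 ± 0.0437 and 0.566 ± 0.0388. Windows had entered the table with over 2 FPKM in at least 2 libraries. In PEO1 73.6% of desert windows reached this, against 60.8% of those 5 to 50 kb from a TSS. The part of this entry in the medians was not tested. The ratio of the resistant to the sensitive median was 0.865 for CP70, 1.85 for PEA2 and 0.611 for PEO4, with 2-sided exact permutation p = 0.3, 0.1 and 0.1. With 3 libraries against 3, the smallest p this test can give is 0.1. The share of the table's reads that fell in desert windows was 1.27 ± 0.135% for A2780 and 0.856 ± 0.0778% for CP70 (SD, n = 3). It was 1.00 ± 0.0605% for PEA1 and 1.64 ± 0.0479% for PEA2, and 2.24 ± 0.0742% for PEO1 and 1.56 ± 0.0992% for PEO4. Resistant libraries lay below their sensitive partners in the A2780 and PEO pairs and above them in the PEA pair, without overlap. The share of each library's reads that fell in any window of the table also moved, from 9.26 ± 0.832% in A2780 to 39.9 ± 0.949% in PEO1, and its part in the order of the levels was not tested. A lower value can mean fewer cells with an open window or a less open window in each cell, which cannot be told apart here.

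**Figure D1:**
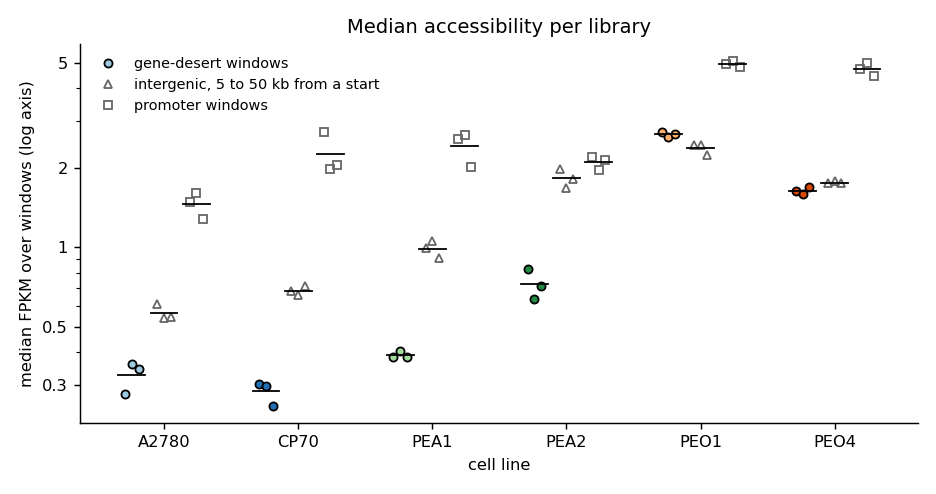
Median FPKM over gene-desert windows (filled circles), intergenic windows 5 to 50 kb from a TSS (triangles) and promoter windows (squares), 1 point per library, 3 libraries per line, with a bar at the mean, on a log axis. The desert medians lie between 0.251 and 0.405 FPKM in A2780, CP70 and PEA1, between 0.636 and 0.824 in PEA2, between 1.58 and 1.69 in PEO4 and between 2.62 and 2.73 in PEO1.

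Desert windows were mostly open in a single line. Taking a window as open in a line when at least 2 of its libraries passed 2 FPKM, 1530 members (61.6%) were open in exactly 1 line, against 40.2% of all windows and 14.5% of promoter windows. At the other end, 25 members (1.01%) were open in all 6 lines, against 8.85% of all windows and 24.9% of promoters. This rule nearly repeats that of the table, over 2 FPKM in at least 2 libraries. Only 50 members (2.01%) were therefore open in 0 lines. The part of the table's rule in the share open in 1 line was not tested. PEO1 opened 1827 members (73.6%), PEO4 1052, PEA2 560, PEA1 144, CP70 85 and A2780 65. PEO1 alone opened 977 members, PEO4 alone 339 and PEA2 alone 169, whereas A2780, CP70 and PEA1 alone opened 12, 16 and 17. The highest line mean belonged to PEO1 in 1612 members (64.9%; 47.0% of all windows) and to PEO4 in 522 (21.0%; 26.8% of all windows).

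The order of the desert windows was also less alike between lines than that of all windows. Over the 2482 members, Spearman's rho between line means was 0.69 for A2780 and CP70, 0.44 for PEA1 and PEA2, and 0.26 for PEO1 and PEO4. Over all 89428 windows the same coefficients were 0.92, 0.49 and 0.71. PEA2 and PEO4, the resistant lines from patients, had a rho of -0.06 in deserts and 0.25 over all windows. These describe windows and not replicates, and the windows share base composition, library depth and the selection of the table.

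The windows open in every line were of another kind. Of the 25, 20 lay near an assembly gap, 15 were on chromosome 2 and 22 lay within a lncRNA gene, with a median GC content of 54.2% and an AP-1 match in 32%. The 4 with the highest minimum over the line means were chr9:66457800-66458800, within LINC01410, which ranged from 5.40 ± 0.556 FPKM in A2780 to 15.7 ± 0.825 in PEO1 (SD, n = 3), chr19:28284300-28285300, at the start of LINC00662, from 4.57 ± 0.962 in A2780 to 21.3 ± 0.267 in PEO1, chr1:238648500-238649500, within LINC01139, from 3.19 ± 0.342 in CP70 to 17.3 ± 0.829 in PEO1, and chr2:91763100-91764100, from 3.104 ± 0.352 in PEO4 to 10.5 ± 0.421 in PEA2. Of these, the windows on chromosomes 9, 19 and 2 lay near an assembly gap. None of the 4 passed the threshold between sensitive and resistant lines in any pair.

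To ask which desert windows changed with resistance, each resistant line was compared with its sensitive partner by limma on log2(FPKM + 0.1). A window entered the test of a pair when its mean over the 6 libraries passed 1 FPKM, and it was called when the log2 fold change passed 2 in size with a Benjamini-Hochberg adjusted p under 0.001 over all windows tested. This scale understates the fold changes of low windows. The median log2 fold change of all windows tested was 0.59 for CP70, 0.31 for PEA2 and -0.30 for PEO4, and the deserts are read against it.

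Before any filter within a pair, the direction of the desert windows differed between the pairs. Over all 2482 members, the mean was higher in CP70 than A2780 in 793 (31.9%; 70.0% of all windows), higher in PEA2 than PEA1 in 1766 (71.2%; 61.6% of all windows) and higher in PEO4 than PEO1 in 647 (26.1%; 38.2% of all windows). All 3 libraries of PEA2 lay above all 3 of PEA1 in 1195 members (48.1%; 41.6% of all windows) and below in 246 (9.91%; 19.7%). All 3 of PEO4 lay above all 3 of PEO1 in 460 (18.5%; 21.5% of all windows) and below in 1569 (63.2%; 43.2%). All 3 of CP70 lay above all 3 of A2780 in 154 (6.20%; 30.8% of all windows) and below in 510 (20.5%; 7.19%). So PEA2 was mostly the higher of its pair in deserts and PEO4 mostly the lower. Entry to the table, however, needed over 2 FPKM in at least 2 libraries. Within a line, 1827 members reached this in PEO1 and 1052 in PEO4, and 560 in PEA2 and 144 in PEA1. Such entry favours the directions seen, and its part was not tested. In the A2780 pair the direction depended on the measure. Fewer members had the higher mean in CP70, but more were open there (85 against 65), the medians of the libraries overlapped, and the median desert window held 4 to 6 reads in CP70.

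In the A2780 pair, few desert windows were open enough to test. Of the 2482 members 194 (7.82%) entered the fit, and 10 (5.15%) were higher in CP70, where 0.428% of all windows tested were, and 11 (5.67%) were lower, where 0.369% were. The libraries of the lines did not overlap in 50.5% of the desert windows tested, against 59% of all windows tested. The median log2 fold change of the 194 was 0.14. The 10 higher windows lay in only 2 deserts, 8 of them between SEL1L, an adaptor of the degradation of misfolded proteins, and FLRT2, a cell adhesion protein of developing tissue, and 2 between EPHA5 and CENPC. The 11 lower windows lay in 5 deserts, 5 of them between CDC73 and KCNT2. All 21 called windows kept the libraries of the lines apart.

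The SEL1L to FLRT2 desert on chromosome 14 held the windows most particular to CP70. At chr14:84293100-84294100, 1703 kb from the TSS of FLRT2, the A2780 libraries had 0.314, 0.496 and 0.496 FPKM and the CP70 libraries 9.17, 6.11 and 5.28. The CP70 libraries all lay above those of A2780, by 3.68 ± 0.25 on the log2 scale (SE; limma, adjusted p = 2.82e-43), and the means of the other 4 lines lay between 0.185 and 0.630 FPKM. Of the 32 windows of the desert 9 could be tested in this pair, with a median log2 fold change of 3.43, against 0.52 over the other tested windows of the same 5 Mb bins. With A2780 at 0.216 to 0.435 FPKM in these 9, they passed the filter through CP70, so that the direction was set by it. The same holds for the 6 windows tested in the PEA pair, all called higher in PEA2, where PEA1 had 0.0634 to 0.471 FPKM and PEA2 2.097 to 4.09. The other 26 were not tested in that pair. Only 1 window, chr14:83629800-83630800, was called higher in both pairs, and its means were 0.280 FPKM in A2780, 1.78 in CP70, 0.471 in PEA1 and 4.09 in PEA2. The other named window higher in CP70, chr4:67430700-67431700 between EPHA5, an ephrin receptor, and CENPC, had 0.157, 0.203 and 0.264 FPKM in A2780 and 3.26, 1.86 and 1.51 in CP70, again without overlap (2.85 ± 0.36, SE; limma, adjusted p = 2.32e-13).

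Desert windows that were open in A2780 and near background in CP70 lay elsewhere. At chr13:62704800-62705800 the A2780 libraries had 2.28, 3.33 and 2.31 FPKM and the CP70 libraries 0.0758, 0.0599 and 0, which are 0 or 1 read each. From the 2 reads over the 3 CP70 libraries, the ratio of A2780 to CP70 was 71.1, with a 95% counting interval of 19.7 to 587. At chr1:195903900-195904900, in the CDC73 to KCNT2 desert, A2780 had 3.03, 3.90 and 2.25 FPKM and CP70 0.152, 0.180 and 0.251, so that no library overlapped (-3.41 ± 0.32, SE; limma, adjusted p = 5.12e-24). At chr13:69285600-69286600, between PCDH9 and KLHL1, A2780 had 1.90, 2.73 and 1.54 FPKM and CP70 0.152, 0.299 and 0.0419 (-3.11 ± 0.40, SE; limma, adjusted p = 1.16e-12). With the median of its 5 Mb bin removed this last value became -1.07 and the call was lost. The bin median takes in the tested desert windows of the bin as well. Copy number was not measured, and the part of the surrounding region in this value was not tested.

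In the PEA pair, the called desert windows were nearly all more open in the resistant line. Of 809 windows tested (32.6% of members), 300 (37.1%) were higher in PEA2, where 11.2% of all windows tested were, and 8 (0.989%) were lower, where 1.42% were. The libraries of PEA1 and PEA2 did not overlap in 84.3% of the desert windows tested, against 66.3% of all windows tested. The median log2 fold change of the 809 was 1.58. A desert window could pass the filter through PEA2 alone, so that the share of windows called is not a share of members. Among windows with a mean of 1 to 2 FPKM over the 6 libraries, 41.9% of those in deserts and 13.8% of all windows were higher in PEA2, and above 2 FPKM 26.4% and 8.35%. That mean includes PEA2, and the median in PEA1 was 0.391 FPKM for desert windows and 1.204 for all windows. Such bands therefore do not take the filter out of the comparison. The share called higher rose with distance, from 1.52% of promoter windows to 15.0% at 5 to 50 kb, 25.7% at 50 to 500 kb and 38.7% at 500 to 1000 kb, and was 32.7% beyond 1000 kb.

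The 300 windows formed 235 runs in 102 deserts on 21 chromosomes. The desert next to the centromeric gap of chromosome 16 (ENSG00000284209 to SHCBP1) held 26, the TMEM132B to TMEM132C desert 22, NUDT12 to EFNA5 11 and TENM4 to FAM181B 9. With the median of each 5 Mb bin removed, 122 of the windows tested were called higher and 11 lower. That median is taken over all tested windows of the bin, desert windows included, so that their own change can be part of what was removed. Copy number was not measured, and its part was not tested.

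The windows with the largest gains in PEA2 were also open in PEO1. In the desert between NUDT12 and EFNA5, an ephrin ligand that guides axons, chr5:106209000-106210000 had 0.192, 0.218 and 0.0959 FPKM in PEA1 and 6.65, 4.97 and 5.37 in PEA2 (4.44 ± 0.27, SE; limma, adjusted p = 8.87e-58), and 6.36 ± 0.576 in PEO1 against 0.336 ± 0.187 in PEO4 (SD, n = 3). Of the 22 windows of that desert 11 could be tested, mostly through PEA2, and all were called higher there, with a median log2 fold change of 3.58. The other 96 tested windows of the same 5 Mb bins had a median of 2.05, so the whole region was higher in PEA2. At chr10:130427100-130428100, between MKI67, which marks dividing cells, and MGMT, a DNA repair enzyme, PEA1 had 0.256, 0.436 and 0.384 FPKM and PEA2 9.45, 6.59 and 7.54 (4.12 ± 0.24, SE; limma, adjusted p = 6.55e-63). PEO1 had 3.34 ± 0.594 FPKM there and the other 3 lines 0.450 to 0.968. At chr16:34799400-34800400, near the gap of chromosome 16, PEA1 had 0.352, 0.374 and 0.575 FPKM and PEA2 11.4, 7.63 and 9.54 (4.18 ± 0.23, SE; limma, adjusted p = 1.54e-67). In none of the 3 did the libraries of the lines overlap.

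Only 8 desert windows were lower in PEA2, each in a desert of its own. At chr10:8618400-8619400, beyond GATA3, a transcription factor of epithelial and immune development, PEA1 had 2.53, 2.24 and 1.82 FPKM and PEA2 0.0550, 0.173 and 0.0887, which rest on 1 to 3 reads per library. The ratio of PEA1 to PEA2 was 21.3, with a 95% counting interval of 9.77 to 57.9. At chr4:132455700-132456700, in LINC02377 between C4orf33 and PCDH10, PEA1 had 2.47, 2.71 and 1.97 FPKM and PEA2 0.275, 0.231 and 0.133 (-3.00 ± 0.32, SE; limma, adjusted p = 3.60e-20). At chr7:125307900-125308900, between POT1, which protects telomeres, and the glutamate receptor gene GRM8, PEA1 had 2.05, 2.37 and 1.44 FPKM and PEA2 0.0550, 0.347 and 0.222 (-2.84 ± 0.34, SE; limma, adjusted p = 9.21e-16). The libraries of PEA1 lay above those of PEA2 in all 3 windows, and the other 4 lines had means of at most 0.866 FPKM there.

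In the PEO pair most desert windows were open enough to test, and more were called lower than higher in the resistant line. Of 2310 windows tested (93.1% of members), 137 (5.93%) were higher in PEO4, where 2.72% of all windows tested were, and 414 (17.9%) were lower, where 5.78% were. The libraries of PEO1 and PEO4 did not overlap in 84.8% of the desert windows tested, against 69.3% of all windows tested. The median log2 fold change was -0.93. The balance of directions depended on the scale. Of the called windows 24.9% were higher in PEO4. The share was 42.0% (184 higher, 254 lower) after each library was centred on its median. It was 56.7% (191 higher, 146 lower) after the median of each 5 Mb bin was removed. The excess of lower calls was thus not kept within bins, whose medians include the desert windows themselves. In the A2780 pair the same share went from 47.6% to 35.0% and 33.3%, and in the PEA pair from 97.4% to 94.4% and 91.7%. The share of lower calls rose with distance from 0.980% of promoter windows to 5.98% at 5 to 50 kb, 10.3% at 50 to 500 kb and 17.96% at 500 to 1000 kb, and was 17.8% beyond 1000 kb.

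**Figure D2:**
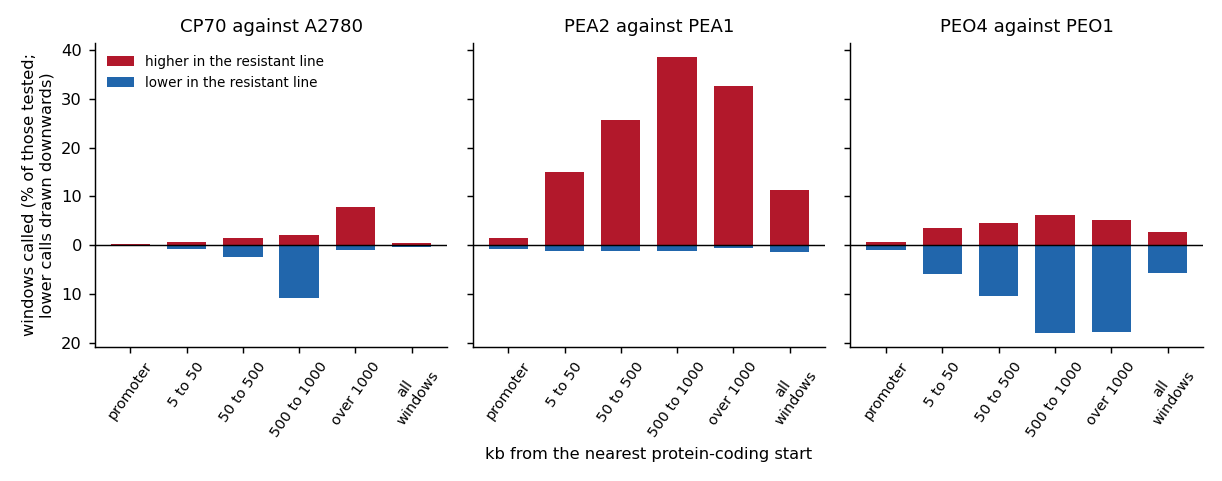
Percentage of tested windows called higher (red, upwards) or lower (blue, downwards) in the resistant line, by class of window from promoters to over 1000 kb from a protein-coding start, with 1 panel per pair. In the PEA pair higher calls go from 1.52% at promoters to 38.7% at 500 to 1000 kb, and in the PEO pair lower calls go from 0.980% to 17.96%.

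The 414 windows lower in PEO4 formed 326 runs in 138 deserts. The TMEM132B to TMEM132C desert held 38, PLA2G4A to BRINP3 15, VRK1 to BCL11B 14, AGA to TENM3 12, OTOL1 to SI 10 and GATA3 to CELF2 9. At chr1:188676000-188677000, between PLA2G4A, which releases arachidonic acid from membranes, and BRINP3, the PEO1 libraries had 16.1, 16.3 and 15.6 FPKM and the PEO4 libraries 0.349, 0.384 and 0.299 (-5.19 ± 0.19, SE; limma, adjusted p = 1.39e-22). At chr12:126887400-126888400, between TMEM132B and TMEM132C, PEO1 had 5.87, 4.89 and 7.13 FPKM and PEO4 0, 0.288 and 0.0996 (-4.92 ± 0.36, SE; limma, adjusted p = 1.72e-14). At chr22:47732400-47733400, between TBC1D22A and TAFA5, PEO1 had 7.99, 7.68 and 5.24 FPKM and PEO4 0.116, 0.288 and 0.149 (-4.66 ± 0.28, SE; limma, adjusted p = 1.37e-16). No library of PEO4 reached the lowest of PEO1 in these windows. All 3 were called higher in PEA2 than PEA1, with means in PEA2 of 3.17 ± 0.827, 2.14 ± 0.144 and 4.65 ± 0.568 FPKM (SD, n = 3) and log2 fold changes of 3.45, 2.94 and 3.44. With the median of its 5 Mb bin removed, the last became 1.81 and that call was lost.

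The 137 windows higher in PEO4 lay in 72 deserts, and 34 of them were on chromosome 8, where 202 members were tested. There the desert between KHDRBS3 and FAM135B held 11 and that between the oncogene MYC and GSDMC 10. At chr17:68783400-68784400, between KCNJ2, a potassium channel, and SOX9, a regulator of cartilage and epithelial progenitors, PEO1 had 0.506, 0.174 and 0.334 FPKM and PEO4 8.02, 6.96 and 7.22 (4.17 ± 0.26, SE; limma, adjusted p = 1.59e-16). The means of the other 5 lines all lay at or below 0.338 FPKM there, so that this window was open in PEO4 only. At chr18:26278200-26279200, between CDH2, which encodes N-cadherin, and DSC3, a desmosomal cadherin, PEO1 had 0, 0.174 and 0.223 FPKM and PEO4 3.02, 3.36 and 3.84. PEO1 had 4 reads in all, and the ratio was 25.8 with a 95% counting interval of 10.1 to 94.7. At chr1:81047700-81048700, between ADGRL4 and the latrophilin gene ADGRL2, PEO1 had 0.101, 0 and 0.111 FPKM and PEO4 2.91, 2.83 and 2.14, a ratio of 39.8 with a counting interval of 11.02 to 329 from 2 reads in PEO1. The libraries did not overlap in any of these 3 windows.

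**Figure D3:**
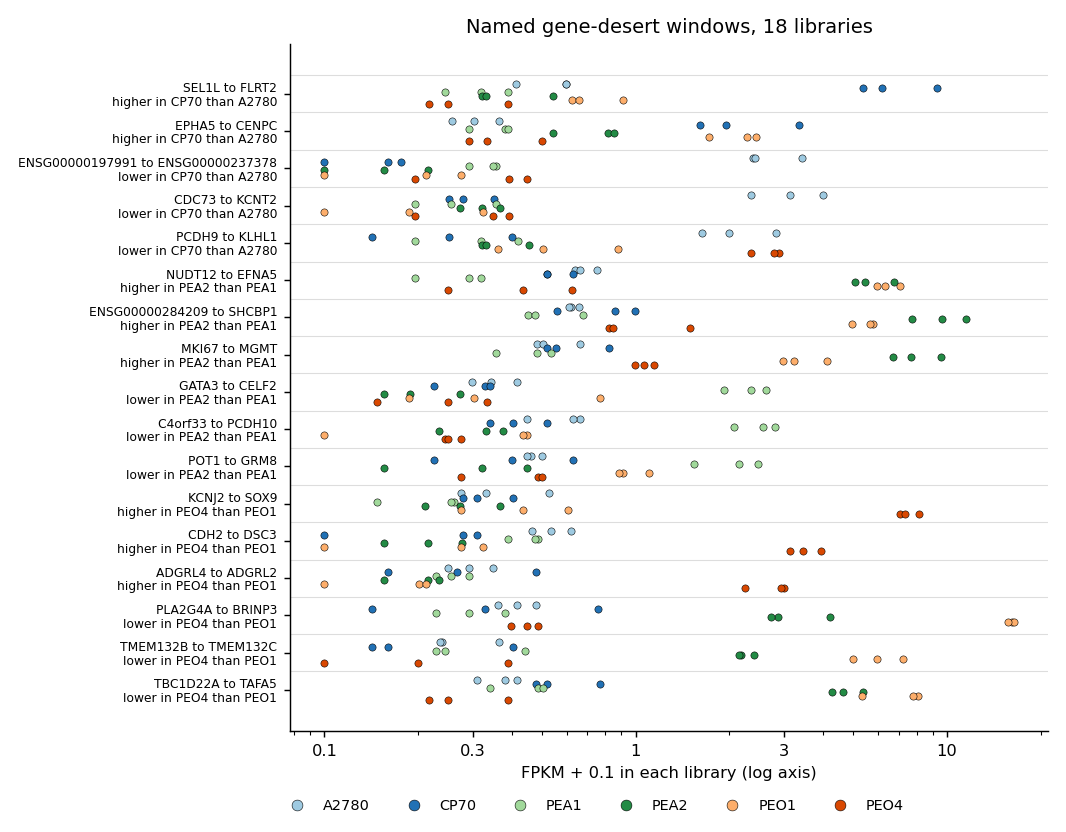
FPKM + 0.1 (log axis) in each of the 18 libraries at the 17 windows with the largest changes in each pair and direction, 1 row per window, named by its flanking protein-coding genes, and 1 colour per line. In each row the 3 libraries of the higher line of the tested pair lie to the right of the 3 of the lower line, and in the rows lower in PEO4 the PEA2 libraries lie near those of PEO1 rather than PEO4.

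The TMEM132B to TMEM132C desert on chromosome 12, 2.60 Mb between genes of a family of transmembrane proteins, had the lowest median change in the PEO pair among deserts with at least 10 windows tested. Its 52 windows formed 36 runs, and 31 held an AP-1 match. Their median was 0.320, 0.374 and 0.384 FPKM in the PEA1 libraries and 2.23, 1.47 and 1.58 in PEA2. It was 3.49, 3.53 and 3.73 in PEO1 and 0.407, 0.480 and 0.399 in PEO4. So the desert was open in the resistant line of the PEA pair and in the sensitive line of the PEO pair, and its line medians in A2780 and CP70 were 0.368 and 0.297 FPKM. In the PEA pair 22 of 27 windows tested were higher in PEA2, with a median log2 fold change of 2.56 and a range of 1.62 to 3.26. The other 103 tested windows of the same 5 Mb bins had a median of -0.01. In the PEO pair 38 of 49 were lower and 1 was higher in PEO4, with a median of -2.79, and the other 127 windows of the bins had a median of -0.02. These other windows lie outside gene deserts, and the desert was named for its extreme median. Its windows entered each test more readily where PEA2 or PEO1 was high. The part of the surrounding region in its change was not tested.

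Other large deserts behaved differently. VRK1 to BCL11B on chromosome 14 had 14 of 20 windows lower in PEO4 and a median log2 fold change of -2.32, against -0.56 over the other windows of its bins, and none of its windows could be tested in the PEA pair. KHDRBS3 to FAM135B, with 56 windows, had a median of 0.52 in the PEO pair against -0.000396 over the other 172 windows of its bins. KIRREL3 to ETS1, next to a transcription factor of the ETS family, was the desert of at least 10 tested windows with the highest median in the PEO pair (0.77, 2 of 10 called higher), and 4 of its 10 windows could be tested in the PEA pair, all called higher in PEA2 (median 3.04). The desert with most windows, RP11-685N3.1 to TEKT4 with 57, lay wholly near the centromeric gap of chromosome 2 and had similar levels in all lines, from 1.85 FPKM in PEO4 to 2.91 in CP70. It accounted for 54 of the 194 windows tested in the A2780 pair, none of which was called by limma, and its median log2 fold changes were 0.51, 0.31 and -0.08 in the A2780, PEA and PEO pairs. At TYW1 to AUTS2 on chromosome 7, 10 of 26 windows were tested in the PEA pair and 0 called. Their median change in PEA2 was 0.33, and that of the other tested windows of the bins was -1.17. Over all 26 windows, however, the median was lower in PEA2 (0.341 FPKM) than in PEA1 (0.886).

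Many deserts went opposite ways in the patient pairs, which share no libraries. Over all members, with no filter within a pair, 211 deserts held at least 3 windows. The median ratio of the line means was above that of all windows for PEA2 against PEA1 (1.23) and below it for PEO4 against PEO1 (0.836) in 125 of them, above both in 26, below both in 43 and the reverse in 17. Read against a ratio of 1, the counts were 144, 23, 33 and 11. Among the 92 deserts with at least 3 windows tested in both pairs they were 77, 11, 4 and 0 against a log2 fold change of 0. That last count is a description alone, since windows low in PEA1 were tested only where PEA2 was high, and windows low in PEO4 only where PEO1 was. The counts over all members are a description too. Entry to the table needed over 2 FPKM in at least 2 libraries, which more members reached in PEO1 than PEO4 and in PEA2 than PEA1. That entry favours the same directions, and its part was not tested. Of 668 windows tested in both pairs 64 were called in both. Of these 59 gained signal in PEA2 and lost it in PEO4, 17 of the 60 with opposite directions lay in the TMEM132B to TMEM132C desert, and the 60 made up 26.9% of the PEA calls and 50% of the PEO calls among windows tested in both.

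The 5 exceptions are named for that reason alone. The 4 windows higher in both resistant lines adjoined each other at chr16:34983000-34986700 near the gap of chromosome 16. In the first of them PEA1 had 0.440 and PEA2 2.43 FPKM, and PEO1 had 0.221 and PEO4 3.18. With the median of the 5 Mb bin removed, the log2 fold changes in PEA2 were 0.98, 1.04, 1.45 and 1.25, so that none of the 4 was then called in both pairs. The window lower in PEA2 and higher in PEO4 was chr8:129912300-129913300 between MYC and GSDMC. PEA1 had 2.24, 3.43 and 2.06 FPKM there and PEA2 0.220, 0.520 and 0.532, whereas PEO1 had 1.11, 0.873 and 0.669 and PEO4 5.99, 6.77 and 6.13. The log2 fold changes were -2.38 (limma, adjusted p = 1.05e-16) and 2.72 (adjusted p = 3.90e-14).

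The difference between the pairs was also tested directly by limma, as an interaction over the libraries of both pairs with the thresholds used above. The change differed between the PEA and PEO pairs in 962 of 2048 desert windows tested (47.0%), against 26.6% of all windows tested, and in 858 of the 962 the PEA pair had the higher change. A2780 and PEA differed in 170 of 452 (37.6%; 12.8% of all windows tested), 159 of them higher in the PEA pair. A2780 and PEO differed in 351 of 1818 (19.3%; 8.12% of all windows tested), 246 of them higher in the A2780 pair. Entry to the table, however, needed over 2 FPKM in at least 2 libraries. More members reached this in PEO1 (1827) than in PEO4 (1052), and in PEA2 (560) than in PEA1 (144). Such entry favours a higher change in the PEA pair and a lower one in the PEO pair. The part of entry and of the filter on the mean in these counts and directions was not tested.

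**Figure D4:**
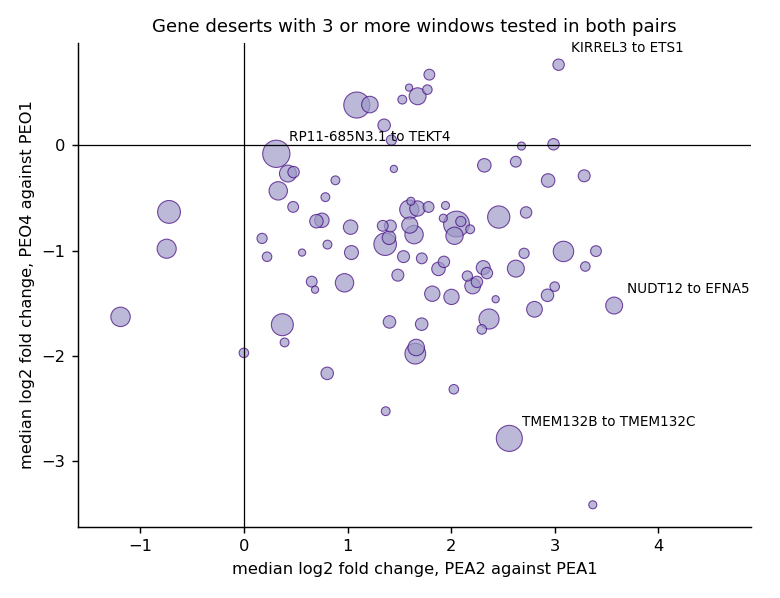
Median log2 fold change of each desert in the PEA pair (x axis) and the PEO pair (y axis), for the 92 deserts with at least 3 windows tested in both; the area of a point follows the number of windows. In all, 77 of 92 deserts lie at the lower right, higher in PEA2 and lower in PEO4, a direction that the filter on the mean of each pair partly set, with TMEM132B to TMEM132C far out at 2.56 and -2.79.

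Windows higher in a line than in each of the other 5 were sought by limma over all 18 libraries, among the 1480 members with a mean over 1 FPKM across them. PEO1 had 114 such windows (7.70%; 1.25% of all windows tested) in 58 deserts, and PEO4 37 (2.5%; 0.583%) in 21 deserts. After each library was centred on its median, PEO1 had 28 and PEO4 30, so that the order of the lines depended on the scale. PEA2 had 6 (0.405%; 0.534%), a share no higher than that of all windows, and CP70 had 4 (0.270%; 0.0135%), all in the SEL1L to FLRT2 desert. A2780 had 0 (0.00809% of all windows), also at an unadjusted p under 0.05 and by edgeR, and PEA1 had 0 (0.0728% of all windows), with 3 at an unadjusted p under 0.05 and 0 by edgeR. Lines with low levels had less room to show such windows, because the filter takes the mean over all lines.

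The windows most particular to PEO1 were among the highest of all members. At chr12:115664400-115665400, between TBX3, a limb and breast transcription factor, and MED13L, a Mediator subunit, PEO1 had 12.6, 12.1 and 13.8 FPKM and the other 5 lines had means of 0.301 to 0.527, a log2 fold change of at least 4.38 in every contrast (limma, largest adjusted p = 1.30e-18). At chr1:195760800-195761800, between CDC73 and KCNT2, PEO1 had 15.5, 14.9 and 13.7 FPKM and the others 0.394 to 0.780. In PEO4, chr17:68783400-68784400 came first, between KCNJ2 and SOX9, with the TSS of KCNJ2 the nearer at 618 kb. The window chr8:115691400-115692400, between CSMD3 and TRPS1, had 5.76, 5.81 and 4.78 FPKM in PEO4 against 0.0731 to 0.429 in the others. At chr10:66491100-66492100, between REEP3 and CTNNA3, PEA2 had 6.27, 4.22 and 5.15 FPKM against 0.354 to 0.632. In CP70, chr14:84294000-84295000, next to the window shown above, had 7.95, 4.25 and 4.10 FPKM against 0.201 to 0.376. In each of these windows every library of the named line lay above those of the other 5.

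AP-1 matches were unevenly shared among the changed windows of the PEO pair. They were in 66.7% of the 414 windows lower in PEO4 and 37.2% of the 137 higher, against 59.6% of the windows tested in that pair. In the PEA pair, 64.0% of the 300 windows higher in PEA2 held one, close to 61.2% of the windows tested there. The share was 69.3% of the 114 windows particular to PEO1 and 29.7% of the 37 particular to PEO4, against 58.5% of all members. Read the other way, 276 of 1377 tested windows with a match (20.04%) were lower in PEO4 and 51 (3.704%) higher. Without a match, 138 of 933 (14.8%) were lower and 86 (9.22%) higher. In PEO1 the median member with a match had 2.96 FPKM and that without 2.33, and in PEO4 1.51 and 1.79. All 3 named windows lower in PEO4 held a match and none of the 3 higher did, and the TMEM132B to TMEM132C window held 6 in all. The differences between the shares are a description and were given no test, since windows of a desert are not independent.

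**Figure D5:**
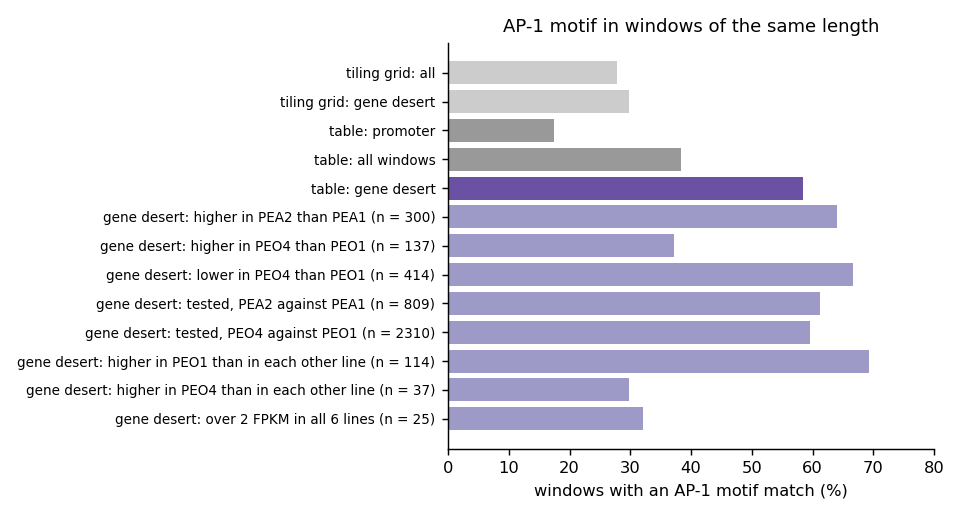
Percentage of windows with a TGANTCA match, for sets of gene-desert windows and for comparison sets of windows of the same length (horizontal bars, axis from 0). Windows lower in PEO4 (66.7%) and particular to PEO1 (69.3%) lie above all gene-desert windows of the table (58.5%). Windows higher in PEO4 (37.2%) lie below these and above all tiling windows of the deserts (29.7%), and windows particular to PEO4 (29.7%) lie at the share of the tiling windows.

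Deserts often flank genes of development and of neuronal adhesion, and members were grouped by the gene with the nearest TSS. No window was tied to a target gene. Developmental regulators were nearest to 202 members around 34 genes. In the A2780 pair 8 were tested by limma and 0 called, with 0 lower and 0 higher. In the PEA pair 20 of 83 were higher (24.1%; 37.1% of all desert windows tested) and 1 lower, with a median log2 fold change of 1.10 against 1.58 over all desert windows tested. In the PEO pair 11 of 184 were higher and 32 lower (17.4%; 17.9% of all desert windows tested), with a median of -0.81 against -0.93. Neuronal adhesion and synaptic genes were nearest to 412 members around 55 genes. Of these, 9 of 33 were higher in CP70 (27.3%; 5.15% of all desert windows tested) and 0 lower. All 9 were nearest to FLRT2 (7) or EPHA5 (2), in the 2 deserts named above for CP70. In PEA2 49 of 116 were higher (42.2%) and 2 lower (median 1.71). In PEO4 16 of 382 were higher and 78 lower (20.4%; median -1.17). Neither list thus stood far from the desert windows as a whole in the patient pairs, other than the lower share of developmental regulators called in PEA2.

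Single genes of these lists went different ways. The counts are of windows tested, and around genes where PEA1 was low a window was tested only where PEA2 was high, so that a count of all tested windows called is not one of all members. MYC was nearest to 34 members, of which 7 of 30 tested were higher in PEO4 and 0 lower, and 2 of 19 were higher in PEA2. Around GATA3, 9 of 16 members tested were lower in PEO4 (median log2 fold change -2.03), and in the PEA pair 1 of 7 was lower in PEA2. SOX11, a transcription factor of neural development, had 4 of 18 lower in PEO4, and of these members 4 could be tested in the PEA pair and were higher in PEA2. TFAP2A, a regulator of neural crest and ectoderm, had 3 of 11 higher in PEA2. The teneurin genes TENM4 and TENM3, which encode adhesion proteins of the synapse, had 9 of 16 and 4 of 8 higher in PEA2, and 4 of 33 and 9 of 22 lower in PEO4. EFNA5 had 4 of 11 lower in PEO4. Its 13 members had a median of 0.148 FPKM in PEA1 and 2.008 in PEA2, and the 8 tested were higher in PEA2. EPHA7, a receptor for such ephrins, had 4 of 8 lower in PEO4, and its 8 members had medians of 0.243 FPKM in PEA1 and 1.093 in PEA2. FLRT2 had 7 of 9 higher in CP70. CDH18, a cadherin, had 4 of 8 higher in PEA2 and 0 of 5 called in PEO4 by limma.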

How the data were processed

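ATAC-seq was carried out on 3 libraries of each of 6 cell lines. Per the labels and the study's methods, the authors removed duplicates with Picard, aligned unique reads to hg19 with Bowtie2, left out blacklisted regions and mitochondrial DNA, and ran featureCounts on tiled windows (tool versions are not given in the sources used here). The deposited table gives FPKM per window and library. Each window spans 1001 bases and starts 900 bases after the last, so the deposited FPKM is the RPM value, reads scaled to the library total, divided by a constant. Every window had over 2 FPKM in at least 2 libraries.

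Whole reads were recovered for 100% of values in each of the 18 libraries (tolerance 0.01 reads), which gave totals of 8963079 to 60435027 reads. Counting intervals cover counting error only.

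Members, genes and distances came from GENCODE v44lift37 on GRCh37. The members and lists were chosen with earlier results of these data known. Fits ran over every window of the table: limma 3.58.1 in R 4.3.3 on log2(FPKM + 0.1) with a mean-variance trend, windows with a mean over 1 FPKM, 2-sided, called at a log2 fold change over 2 and a Benjamini-Hochberg adjusted p under 0.001. The authors used voom weights on counts. On the recovered reads, edgeR 4.0.16 (quasi-likelihood test) called 12 desert windows higher and 11 lower for CP70, 331 and 9 for PEA2, then 150 and 459 for PEO4. The scripts were checked on simulated data.

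Named windows were the 3 with the largest fold change per pair and direction whose libraries did not overlap, at most 1 per desert; the 2 most particular to each line (1 of those of PEA2 is not reported here); and the 4 with the highest minimum over line means. Named deserts were the 6 with most windows and the 2 with the highest and lowest median change in each pair. Windows named as exceptions, and 1 shared by the A2780 and PEA pairs, were chosen after their values were seen. Replicates of a line differed by more than counting error over all windows (chi-square per window 1.07 to 2.10) and were kept separate. Over desert windows the values ran from 0.991 to 1.60, mostly above the 5% limit of counting error. Replicates 2 and 3 of PEO1 (0.991) and of CP70 (1.03) lay within that limit. So did replicate 1 of PEO4 against replicates 2 (1.03) and 3 (1.01). Alternatives were the pseudocount, the filter, median centring, subtracting the 5 Mb bin median, edgeR, looser thresholds, a limit of 1000 kb, a replicate block and leaving out each library. Leaving out windows near assembly gaps and the TMEM132B to TMEM132C desert was added after seeing the data. The 5 Mb bin median was taken over all tested windows of the bin, desert windows included.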

Additional observations from a re-analysis of the deposited data

Results flagged for a closer look

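The change between the resistant and sensitive line differed between pairs, by a limma interaction test over the libraries of both pairs with adjusted p under 0.001, at 11 of the named windows. In log2 units, the change in the A2780 pair minus that in the PEO pair was 5.06 at chr14:84293100-84294100 (SEL1L to FLRT2), 5.39 at chr4:67430700-67431700 (EPHA5 to CENPC), -5.41 at chr13:69285600-69286600 (PCDH9 to KLHL1), -4.32 at chr17:68783400-68784400 (KCNJ2 to SOX9) and -5.46 at chr18:26278200-26279200 (CDH2 to DSC3). The change in the PEA pair minus that in the PEO pair was 8.42 at chr5:106209000-106210000 (NUDT12 to EFNA5), 6.61 at chr16:34799400-34800400 (ENSG00000284209 to SHCBP1), 5.80 at chr10:130427100-130428100 (MKI67 to MGMT), 8.63 at chr1:188676000-188677000 (PLA2G4A to BRINP3), 7.87 at chr12:126887400-126888400 (TMEM132B to TMEM132C) and 8.10 at chr22:47732400-47733400 (TBC1D22A to TAFA5). The windows had been chosen for a large change in 1 of the pairs, so that a difference in size was to be found, and the sign of each pair's own change is given in the results.

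By the same test the change differed at 962 desert windows between the PEA and PEO pairs. It differed at 170 between the A2780 and PEA pairs and at 351 between the A2780 and PEO pairs. The part of entry to the table in these counts was not tested. Each group had 3 libraries, too few to look for outlying samples within a group.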

How the results depend on the processing

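The counts of called desert windows depended on the thresholds and the filter, and higher calls outnumbered lower calls in PEA2, and lower calls outnumbered higher in PEO4 under every alternative except removal of the 5 Mb median. With a pseudocount of 0.5, the higher and lower counts were 6 and 5 for CP70, 118 and 2 for PEA2, and 51 and 187 for PEO4, windows particular to PEO1 numbered 75, and the change differed at 100 windows between the A2780 and PEA pairs and at 222 between the A2780 and PEO pairs. With a minimum mean of 2 FPKM, which leaves fewer windows, they were 5 and 1, 66 and 0, and 54 and 222 by limma, with 9 lower in PEA2 at an unadjusted p under 0.05. Windows particular to a line then numbered 0 in CP70, 0 in PEA2, 37 in PEO1 and 3 in PEO4 (unadjusted p under 0.05 at 4 in CP70 and 10 in PEA2), and differences between pairs 12 (A2780 and PEA), 111 (A2780 and PEO) and 357 (PEA and PEO). With no filter, 20 were lower in PEA2, windows particular to A2780, PEA1, PEA2, PEO1 and PEO4 numbered 7, 3, 38, 216 and 112, and 578 differed between the A2780 and PEA pairs. With thresholds of 1 and 0.05, 18 were higher in CP70, 528 higher and 25 lower in PEA2, and 300 higher and 1095 lower in PEO4, windows particular to PEA1, PEA2, PEO1 and PEO4 numbered 2, 34, 489 and 88, and differences 286, 882 and 1450 in the order above. Median centring gave 254 lower in PEO4, and 1 window particular to A2780 and 28 to PEO1. Removing the 5 Mb median gave 6 higher in CP70, 122 higher in PEA2, 146 lower in PEO4, and 221 (A2780 and PEO) and 539 (PEA and PEO) differences; the cause was not tested. Members over 1000 kb from a TSS, fewer by construction, gave 1 lower in CP70, 70 higher and 1 lower in PEA2, 34 higher and 115 lower in PEO4, 1, 33 and 10 particular to PEA2, PEO1 and PEO4, differences of 29, 85 and 235, and medians of 2.74 FPKM in PEO1 and 1.58 in PEO4. The mean in place of the median gave 0.471 FPKM for A2780, 0.447 for CP70, 0.611 for PEA1, 1.25 for PEA2, 3.59 for PEO1 and 2.16 for PEO4.

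Leaving out each library in turn gave 6 to 11 windows lower in CP70 (6 without A2780 replicate 2), 4 to 9 lower in PEA2 (4 without PEA1 replicate 1 or 2), 0 to 4 particular to CP70 (0 without CP70 replicate 1, where 10 had an unadjusted p under 0.05, and 1 without replicate 2), 1 to 9 particular to PEA2 (1 without PEA2 replicate 1, 3 without replicate 2 or 3), 22 to 44 particular to PEO4 (22 without PEO4 replicate 1) and 88 to 193 that differed between the A2780 and PEA pairs (88 without PEA2 replicate 1, 107 without replicate 3). Without windows near assembly gaps, PEA2 had 269 higher windows and PEO4 399 lower. Without the TMEM132B to TMEM132C desert the counts were 278 and 376. Of the named windows, chr4:67430700-67431700, chr13:69285600-69286600 and chr7:125307900-125308900 fell under the fold threshold with a pseudocount of 0.5 (1.88, -1.94 and -1.80).

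Samples with the same replicate number in a pair did not deviate together (correlations of -0.41 to 0.045), so they share only a number. A replicate block left the counts at 10 and 11 (CP70), 300 and 8 (PEA2) and 137 and 414 (PEO4), and gave 352 differences between the A2780 and PEO pairs. Counting members against all GENCODE genes left 1 window and was not run further. In A2780 and CP70 the low read counts limit what could be tested.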
